A study of Caenorhabditis elegans with 21 samples.

Results

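Sterile F4 L1starved adults of C. elegans were compared with control adults of the same wild type strain, N2, by RNA sequencing of whole animals. F4 L1starved animals come from a line in which the first larval stage, L1, was starved in each of the consecutive generations P0 to F4, and which was otherwise fed. The animals sequenced had themselves starved as L1 larvae and had then grown to day 1 adults on food. About 100 day 1 adults in which no eggs were seen were picked for each sterile library. The fertile F4 L1starved adults came from the same plates and were picked for carrying more than 5 eggs, and the control adults, whose line was fed throughout, were picked at the same time for carrying more than 5 eggs. The absence of eggs was thus the criterion by which sterile animals were selected, so that missing embryo RNA is part of the selection and not a result. The 6 libraries compared, 3 sterile and 3 control, are among 21 libraries of 7 groups, and the 3 fertile libraries are used to show where sterile animals differ from fertile animals of the same ancestry. The adult table holds 17720 usable genes, of which 13413 whose normalized count averaged 10 or more over the 9 adult libraries were tested and 4307 lay below that level.

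The hermaphrodite gonad of C. elegans is a tube in which germ cells are born in a distal stem cell region, enter meiosis and mature proximally. Notch signaling through GLP-1 keeps distal cells in mitosis. The first germ cells become sperm in the last larval stage, after which the germline switches to oocytes, and the adult hermaphrodite makes only oocytes. Oocytes are filled with maternal RNA and take up yolk, which is made as vitellogenin in the intestine and bound by the receptor RME-2. Sperm genes are transcribed in spermatocytes and sperm themselves are nearly silent, so sperm messages in a normal day 1 adult are scarce. DAF-16 is the FoxO transcription factor held in the cytoplasm by the insulin receptor DAF-2 and the kinases AGE-1, PDK-1, AKT-1 and AKT-2, and it enters the nucleus upon starvation.

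A sterile library held between 12187063 and 22942483 reads assigned to genes (median 13899068), against 18356657 to 21455916 in control libraries (median 21407854), and the fertile libraries held 14082044 to 18666332. Ribosomal RNA took 20.7 ± 2.79% of the reads in sterile libraries and 9.10 ± 0.688% in control libraries (SD, n = 3 each), the smallest sterile share being 17.7% and the largest control share 9.77%, and in fertile libraries it took 11.7 to 16.8%. The part of library preparation in this share was not tested. Across genes, log2 levels of sterile libraries correlated with each other at r = 0.9585 to 0.9708 and with control libraries at r = 0.66 to 0.756, whereas fertile libraries correlated with control libraries at r = 0.957 to 0.970. Every p given for a gene is the adjusted p of limma, a linear model fitted over all genes tested, and each fold change is a difference of log2(normalized count + 1), with its SE. Replicates were independent collections, so p-values reflect the spread between collections of pooled animals.

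Sterile animals differed from control animals in most of the genes tested. At an adjusted p under 0.05, 5537 genes (41.3% of those tested) were higher and 5602 (41.8%) were lower in sterile animals, and 2274 did not pass. At least 2-fold higher were 4447 genes (33.2%) and at least 2-fold lower 4382 (32.7%), and in 11537 genes (86%) the sterile and control libraries did not overlap. With so broad a change, any list of genes is expected to hold many members that passed, and each count is read against these shares. Fold changes of the genes tested were not spread evenly around 0 but fell into 3 groups. The fullest bins, of 0.25 on the log2 scale, lay at -1.5 to -1.25 with 883 genes, at 1.25 to 1.5 with 945 genes and, apart from these, at 5.75 to 6 with 106 genes. The median log2 fold change was 0.14, the quartiles were -1.34 and 1.33, and the range ran from -6.03 to 8.48. At least 8-fold higher were 1215 genes, against 357 genes that were at least 8-fold lower.

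**Figure D1:**
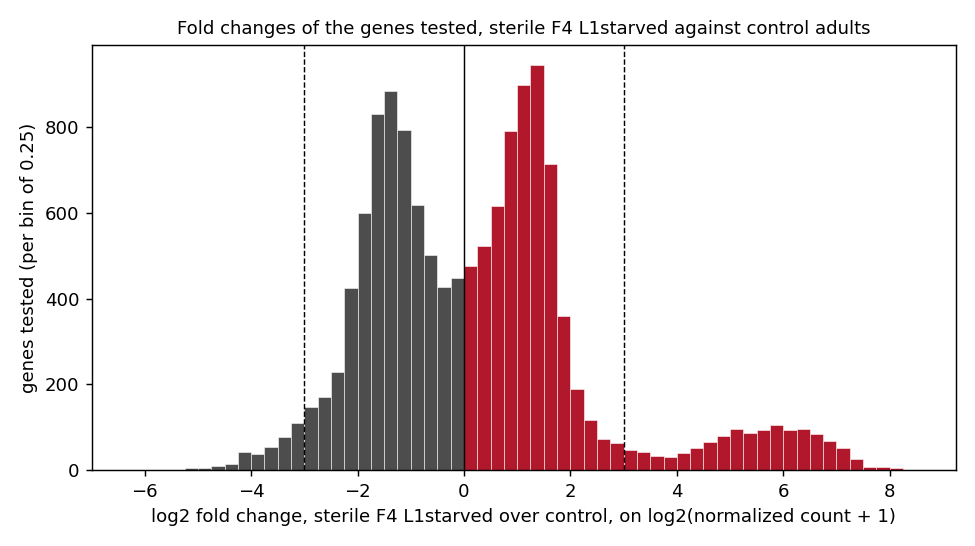
Number of genes tested (vertical axis, per bin of 0.25) by the log2 fold change of sterile over control adults on log2(normalized count + 1) (horizontal axis, 0 marked by the line). Most genes lie in 2 broad peaks at -1.5 to -1.25 and 1.25 to 1.5, and a separate small peak has its fullest bin at 5.75 to 6 on the side of genes higher in sterile animals.

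Counts of genes higher and lower depend on what is taken as equal between libraries, since the change involves most of the transcriptome. When libraries were instead set equal at the geometric mean of 43 muscle sarcomere and attachment genes, a choice made after seeing the data, the median of all genes moved by -0.99 and 2399 genes were higher and 7090 lower. Under this muscle scaling a value says how a gene moved relative to muscle messages, and the muscle-scaled median is given below beside the medians of lists of somatic genes. Other scalings moved the median of all genes by -0.36 to 0.19 on the log2 scale. Whole animals were sequenced, so fewer cells of a type and less RNA per cell cannot be told apart anywhere in these data.

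Genes of sperm gave the highest medians of the gene lists examined in sterile over control animals. All 29 major sperm protein (msp) genes tested, of 31 in the table, were higher in sterile than in control animals, with a median log2 fold change of 5.92 and a range of 4.51 to 7.07, against a median of 0.14 over all genes. Their counts lay mostly in the sterile libraries, which thus largely decided which of them passed the filter on low values. Tested without that filter, all 31 were higher (median 5.90). MSP is the cytoskeletal protein with which the amoeboid nematode sperm crawls, and it also serves as the signal for oocyte maturation and ovulation. The normalized count of msp-3 was 662, 505 and 594 in sterile, 44.5, 18.4 and 5.73 in fertile and 2.81, 11.4 and 9.37 in control libraries. The 3 sterile libraries stood far above the 6 others, among which fertile and control libraries overlapped, and the log2 fold change over control was 6.21 ± 0.61 (adjusted p = 1.91e-06). For msp-76 the counts were 1334, 1138 and 1129 in sterile libraries, against 13.1, 22.7 and 25.9 in control libraries (log2 fold change 5.85 ± 0.45). The msp genes are nearly identical to each other, so reads may be split among them and single members are uncertain. Together the msp genes took 0.103 ± 0.0153% of the counts without rRNA in sterile libraries and 0.00189 ± 0.00111% in control libraries (SD, n = 3 each).

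Genes listed for sperm chromatin changed in the same direction. All 6 genes of this list were higher (median log2 fold change 6.90). The lowest was smz-1 (5.75), whose family is also in the list of small sperm peptides. The basic sperm nuclear protein gene spch-2 had 534, 479 and 650.0 in sterile, 30.2, 10.5 and 2.29 in fertile and 0, 3.03 and 0.721 in control libraries (log2 fold change over control 8.17 ± 0.72, adjusted p = 9.34e-07). Every sterile library was above every fertile library, and fertile replicate 1 was above the other fertile and all control libraries. The protein phosphatase gene gsp-3, which acts in sperm meiosis and motility, had 1328, 1197 and 1397 in sterile libraries, against 1.87, 12.9 and 7.21 in control libraries (log2 fold change 7.57 ± 0.52). Small sperm peptides and sperm-specific genes of the ssp, nspd, smz and sss families numbered 22 in the table and 19 tested, and 19 were higher, with a median of 5.80. Tested without the filter on low values, all 22 were higher (median 5.63). The lowest of them was ssp-37, singled out after its values were seen, with 122.2, 129 and 140.4 in sterile libraries, against 58.1, 46.97 and 60.5 in control libraries (log2 fold change 1.23 ± 0.23). Nearly identical copies exist among the nspd genes as well, and single values of that family are uncertain.

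Of 41 genes of spermatogenesis and sperm function in the table, 35 were tested, 31 were higher and 3 lower, and spe-44 did not pass. Without the filter on low values 36 of the 41 were higher and 3 lower. The surface protein gene spe-9, needed by sperm to fertilize the oocyte, had 42.5, 66.7 and 76.0 in sterile libraries, against 1.87, 3.03 and 2.16 in control libraries (log2 fold change 4.198 ± 0.68, adjusted p = 1.07e-04). The myosin gene spe-15 had 2136, 2067 and 2474 in sterile libraries, against 109.6, 153 and 141 in control libraries (log2 fold change 4.05 ± 0.16), a change resting on a level that was already above 100 in every control library. The 3 genes that were lower were spe-39, a vesicle trafficking gene also used in somatic cells, cpb-1, a CPEB-type RNA-binding protein gene, and spe-48, with log2 fold changes of -1.56, -1.03 and -0.89. The count of cpb-1 was 547, 660.3 and 728 in sterile, 911, 1043 and 815 in fertile and 1437, 1368 and 1152 in control libraries, without overlap between sterile and control libraries. The list's median log2 fold change was 4.92 in sterile over control, 4.25 in sterile over fertile and 0.99 in fertile over control animals. The summed level of the 6 sperm markers was 4728 to 5593 in sterile, 105 to 367 in fertile and 25.28 to 72.0 in control libraries. Markers of males, animals that a hermaphrodite sample should not hold, summed to 32.7 to 47.8 in sterile, 16.7 to 29.4 in fertile and 11.5 to 18.7 in control libraries. Of the 4 male markers in the table only mab-3 reached the level for testing, with 21.3, 23.8 and 21.2 in sterile libraries, against 5.62, 5.30 and 3.60 in control libraries (log2 fold change 1.999 ± 0.50; 0.47 by quantile normalization, adjusted p = 0.294). The part of males in the sperm result was not tested.

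The Argonaute genes that act in spermatogenesis rose with the sperm genes. The normalized count of alg-3 was 1334, 1148 and 1360.1 in sterile, 99.9, 39.5 and 20.6 in fertile and 2.81, 11.4 and 12.3 in control libraries, and that of alg-4 was 1465, 1376 and 1776 in sterile, 82.3, 42.1 and 34.4 in fertile and 3.75, 10.6 and 10.1 in control libraries. Their log2 fold changes over control were 7.22 ± 0.54 and 7.495 ± 0.38, and sterile libraries lay above the highest fertile library in both. The related Argonaute gene wago-10 had 567, 517 and 676 in sterile libraries, against 1.87, 2.27 and 0.721 in control libraries (log2 fold change 7.85 ± 0.63). Besides these, sago-1 was the only Argonaute gene higher in sterile animals (1.15), and 15 of the 21 tested were lower.

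Genes outside the sperm lists used here made up most of the strongly risen group, and whether they act in sperm was not tested. Of the 1215 genes at least 8-fold higher, 78 were in the sperm lists, 63 in other lists and 1074 in none, and 916 carry only a sequence name in the table. Their median level was 132.6 in sterile, 7.34 in fertile and 2.19 in control animals, so that 1072 of them had a control mean under 10, and 77 were at 0 in all control libraries. Their median log2 fold change was 5.58 in sterile over control, 4.45 in sterile over fertile and 1.19 in fertile over control animals, the last of which shares the control libraries with the first. The 10 genes highest by the rule used for naming genes were Y57G11A.2, spch-2, R09E10.2, Y69A2AR.19, Y113G7C.1, T08B6.9, R09E10.6, ZK354.6, Y69E1A.1 and C09B9.7, of which only spch-2 has a gene name. Y57G11A.2 had 1911, 1919 and 2450.0 in sterile, 169, 60.5 and 66.5 in fertile and 0, 11.4 and 15.1 in control libraries (log2 fold change over control 8.48 ± 0.82, adjusted p = 1.74e-06). In ZK354.6 the counts were 319, 199.99 and 236 in sterile, 20.1, 3.51 and 4.58 in fertile and 0, 0 and 0 in control libraries, so no fold against control is given. R09E10.2 had 1640.5, 1211 and 1212 in sterile libraries, against 4.68, 3.79 and 2.88 in control libraries (log2 fold change 8.15 ± 0.49).

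Gene families among these 1215 genes, which are 9.06% of those tested, were tallied by gene name after their values were seen. Only genes tested were tallied, so the tallies do not cover whole families. Genes near 0 in fertile and control libraries passed the filter on low values through their sterile level. At least 8-fold higher were 9 of 9 irld genes, 4 of 4 ssq genes, 6 of 7 msrp genes, 11 of 21 nep genes (neprilysin-type peptidases), 4 of 5 mpz genes (PDZ domain proteins), 6 of 25 best genes (bestrophin-type channels) and 12 of 85 clec genes (C-type lectins). The numbers were 4 of 52 cyp, 4 of 57 ugt and 4 of 87 fbxa genes. Metabolic enzymes with near-absent control levels also belonged to this group. The glycolytic gene pfk-1.2, a phosphofructokinase, had 414, 416 and 468 in sterile, 27.7, 10.5 and 9.17 in fertile and 0.936, 1.52 and 4.32 in control libraries (log2 fold change over control 7.19 ± 0.47). The acyl-CoA synthetase gene acs-10 had 526, 368 and 577 in sterile libraries, against 1.87, 6.06 and 1.44 in control libraries (7.04 ± 0.50), and acyl-CoA dehydrogenase acdh-8 had 1027, 789 and 949 in sterile libraries, against 1.87, 12.9 and 9.37 in control libraries (6.94 ± 0.48). The C-type lectin gene clec-123 had 631, 579 and 691 in sterile libraries, against 3.75, 3.03 and 7.21 in control libraries (6.87 ± 0.39), and the sodium-dependent transporter gene snf-5 had 1320.3, 1214 and 1179 in sterile libraries, against 14.05, 25.8 and 16.6 in control libraries (6.01 ± 0.41). In all 5 genes the 3 sterile libraries were far above the fertile and control libraries. Only 12 of the 1215 genes (0.988%) lie on the X chromosome, which holds 13.7% of the genes tested and 21.3% of those that were 2-fold to 8-fold higher. The msp genes tested lie on chromosomes II and IV, with 12 and 17 genes.

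**Figure D2:**
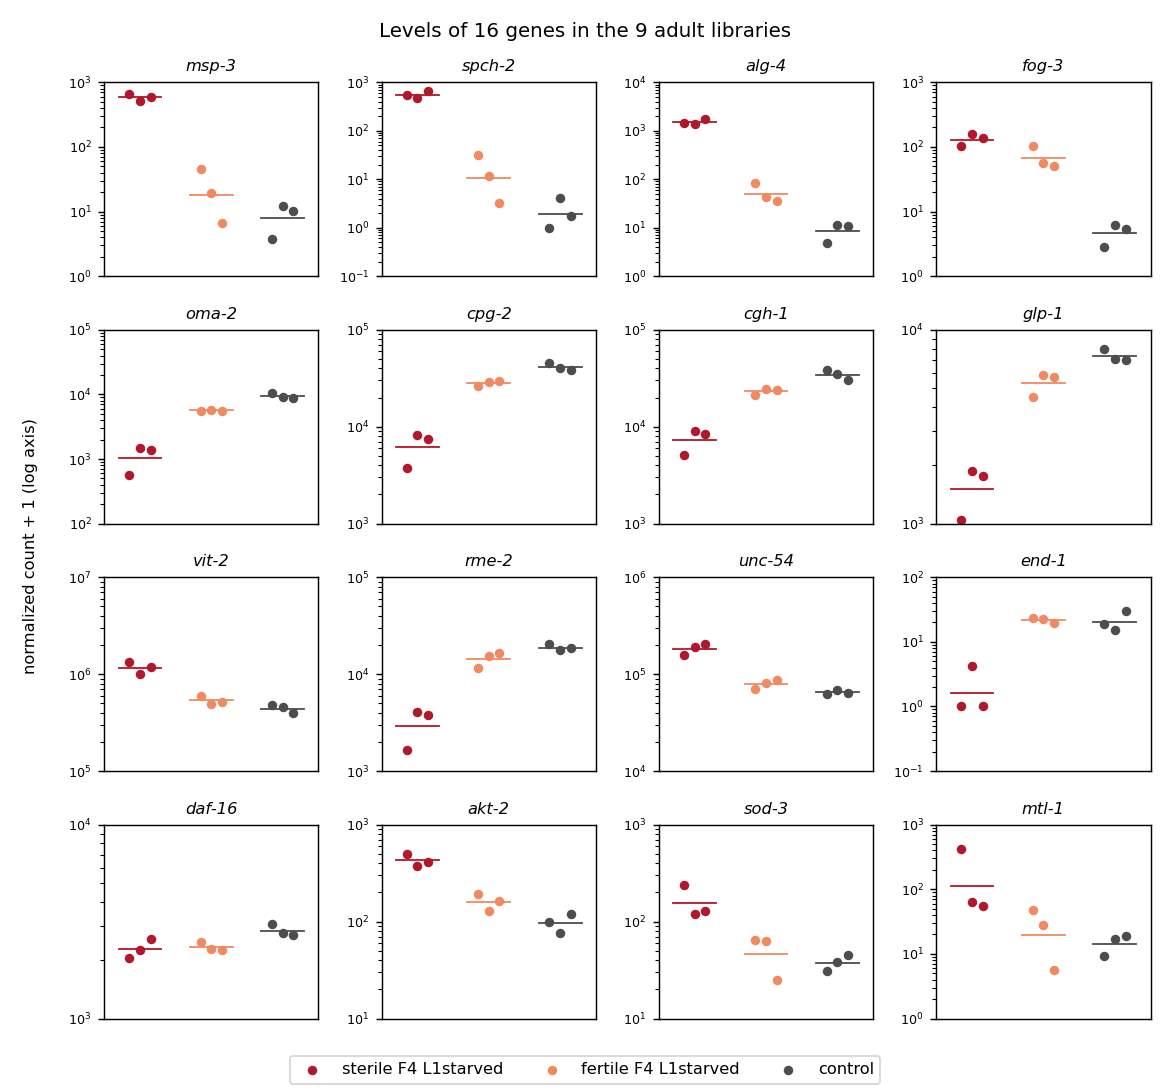
Normalized count + 1 (log axis) of 16 genes in each of the 9 adult libraries, with sterile libraries in red on the left, fertile ones in orange and control ones in gray; the line is the geometric mean of 3 libraries. In msp-3, spch-2 and alg-4 the sterile libraries stand apart from both other groups, in fog-3 the sterile and fertile libraries stand above control, and in oma-2, cpg-2, cgh-1, glp-1, rme-2 and end-1 the sterile libraries are the lowest.

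Sex determination of the germline decides between sperm and oocyte, and its genes did not move with the sperm genes. Of 22 genes tested, fog-3 was the only one that was higher, 20 were lower, and fog-1 did not pass, with a list median of -1.54. fog-3 encodes a Tob-family protein that specifies the sperm fate, and its count was 101, 159 and 134 in sterile, 103.2, 55.3 and 49.3 in fertile and 1.87, 5.30 and 4.32 in control libraries. Sterile and fertile animals were both well above control (log2 fold changes 4.83 ± 0.39 and 3.86, adjusted p = 5.71e-07 and 5.40e-04), and sterile replicate 1 fell just below fertile replicate 1. Its partner fog-1, which encodes a CPEB-type protein, had 501, 576 and 673 in sterile, 833, 627 and 679 in fertile and 544, 477 and 423 in control libraries, and sterile and control libraries overlapped (log2 fold change 0.27 ± 0.16, adjusted p = 0.124; 0.38 without sterile replicate 1, adjusted p = 0.0347). fog-1 passed as higher by TMM scaling, quantile normalization (0.83), edgeR (0.48) and DESeq2, and as lower after muscle scaling (-0.73). The masculinizing gene fem-3 had 95.6, 209.5 and 150.1 in sterile libraries, against 876, 840.2 and 806 in control libraries (log2 fold change -2.53 ± 0.24), and fem-2 and fem-1 had log2 fold changes of -1.74 and -0.61. The feminizing receptor gene tra-2 had 768, 1139.6 and 916 in sterile libraries, against 2715, 2407 and 2387 in control libraries (-1.43 ± 0.14), and tra-1, the terminal Gli-type transcription factor gene, was -0.68. fog-2, which lets hermaphrodites make sperm, had 71.7, 227 and 125 in sterile libraries, against 532, 442 and 449 in control libraries (-1.89 ± 0.32), and the X chromosome signal gene xol-1 and the male ligand gene her-1 were low everywhere, with log2 fold changes of -2.02 (-1.34 without sterile replicate 3) and -2.56. By quantile normalization the log2 fold changes of fem-1, tra-3 and tra-1 were 0.06, 0.018 and -0.029, against -0.61, -0.53 and -0.68 here. None of these 3 passed by quantile normalization.

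Oocyte genes moved opposite to the sperm genes. Of 25 genes for oocyte and maternal RNA-binding proteins, 24 were lower and none was higher, with a median log2 fold change of -2.70 in sterile over control, -2.09 in sterile over fertile and -0.58 in fertile over control animals. The zinc-finger genes oma-1 and oma-2 drive oocyte maturation, and oma-2 had 569.9, 1455 and 1381 in sterile, 5538, 5836 and 5606 in fertile and 10562, 9242 and 8844 in control libraries (log2 fold change over control -3.18 ± 0.27, adjusted p = 8.51e-07). The oocyte regulator gene lin-41, which encodes a TRIM-NHL protein, had 944, 2084 and 1839.7 in sterile libraries, against 10764, 9879 and 9365 in control libraries (-2.70 ± 0.24). The Pumilio-family gene puf-5 had 1280.5, 3198 and 3249 in sterile libraries, against 21219.6, 18488 and 17176 in control libraries (-2.99 ± 0.29). Sterile libraries were below fertile and control libraries in each, and sterile replicate 1 was the lowest of the 3, by a wide margin. The list took 0.248 ± 0.0744% of counts without rRNA in sterile and 1.31 ± 0.0475% in control libraries (SD, n = 3 each). The 6 oocyte markers summed to 11684 to 27201 in sterile, 84964 to 103170 in fertile and 130972 to 151526 in control libraries, so that oocyte messages were reduced in sterile animals but present in every sterile library.

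Eggshell genes are expressed in growing oocytes ahead of fertilization, and 16 of 21 were lower and 3 higher, with a median of -2.36. cpg-2, which encodes a chondroitin proteoglycan of the eggshell, had 3788, 8215 and 7478 in sterile, 26064, 28906 and 29928 in fertile and 45075, 40654 and 38823 in control libraries (log2 fold change over control -2.75 ± 0.23, adjusted p = 7.16e-07). egg-3, which links fertilization to eggshell assembly, had 300.2, 508 and 484 in sterile libraries, against 2351, 1961 and 2150.4 in control libraries (-2.35 ± 0.19). The 3 members that were higher were perm-4 (1.001), pod-2 (0.70), an acetyl-CoA carboxylase of fatty acid synthesis, and spe-11, a factor that the sperm brings to the egg. spe-11 had 639, 614 and 699 in sterile, 36.9, 32.5 and 5.73 in fertile and 0.936, 5.30 and 9.37 in control libraries (log2 fold change 7.02 ± 0.67). The yolk receptor gene rme-2 had 1638, 4104 and 3770.4 in sterile, 11602, 15308 and 16385 in fertile and 20246, 17902 and 18405 in control libraries, without overlap between sterile libraries and the others (log2 fold change over control -2.68 ± 0.28, adjusted p = 3.03e-06). All 20 genes of P granules, the RNA-protein bodies of germ cells, were lower, with a median of -1.98. cgh-1, a DEAD-box helicase gene of these granules that protects maternal messages, had 5129, 8971 and 8438 in sterile libraries, against 38524, 34718 and 30593 in control libraries (-2.24 ± 0.19), and pgl-1 had a log2 fold change of -1.69 ± 0.19.

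Genes of the stem cell region and of meiosis were lower as well, with medians nearer to 0 than that of the genes for oocyte RNA-binding proteins. Of 31 genes of oocyte meiosis and polarity, 30 were lower and none was higher (median log2 fold change -1.65). All 18 genes of germline stem cells and meiotic entry were lower (median log2 fold change -1.85), and the Notch receptor gene glp-1 had 1049, 1878 and 1765 in sterile, 4509, 5852 and 5722 in fertile and 8001, 7054 and 6995 in control libraries (log2 fold change over control -2.27 ± 0.19, adjusted p = 8.14e-07). The direct Notch targets of the stem cell pool, sygl-1 and lst-1, had log2 fold changes of -2.95 ± 0.29 and -2.13 ± 0.17, and the Pumilio genes fbf-1 and fbf-2 of -1.70 ± 0.14 and -1.16 ± 0.17. sygl-1 counted 126, 354 and 281 in sterile and 2036, 1805 and 1588 in control libraries, with replicate 1 again the lowest of the sterile ones. All 33 genes of the synaptonemal complex and meiotic chromosome axis were lower, with a median of -1.64 and a range of -2.39 to -0.93. syp-1, a central element of that complex, changed little for this list, with 456, 644 and 708 in sterile libraries, against 1147, 1155 and 1092 in control libraries (-0.93 ± 0.18; -0.27 by quantile normalization, adjusted p = 0.125), and zhp-3, a crossover factor gene, changed more, with 167, 225 and 174 in sterile libraries, against 1069, 993 and 905 in control libraries (-2.39 ± 0.14). The 6 markers of mitotic and meiotic germ cells summed to 6541 to 10404 in sterile, 15439 to 20338 in fertile and 23613 to 26855 in control libraries. Sterile adults held messages of the mitotic and meiotic germline in all 3 libraries, at a level below that of both other groups.

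Cell division genes were lower nearly throughout. Of 27 genes for DNA replication and nucleotide supply, 26 were lower (median -2.49) and pcp-1 was higher (1.32), and all 36 spindle and kinetochore genes were lower (median -1.72). gmn-1, which encodes the replication inhibitor geminin, had 106, 132 and 135 in sterile libraries, against 889.7, 761 and 739 in control libraries (-2.67 ± 0.14). Of 26 cyclin and cell-cycle kinase genes, 24 were lower (median -2.14), for example the B-type cyclin gene cyb-2.2 with 324, 529 and 512 in sterile libraries, against 3736, 3224 and 3087 in control libraries (-2.91 ± 0.17). The exception was cdc-25.4, a phosphatase gene chosen after its values were seen, with 59.8, 76.2 and 47.7 in sterile, 8.39, 2.63 and 0 in fertile and 0, 3.79 and 0 in control libraries (5.18 ± 0.86). Histone genes showed the same split, with 30 of 35 lower (median -2.60) and 5 higher. his-38 had 108, 156 and 219.9 in sterile libraries, against 2073, 1799 and 2038 in control libraries (-3.66 ± 0.22), whereas the H3 variant gene his-70, also chosen after its values were seen, had 98.3, 79.4 and 88.3 in sterile libraries, against 0, 3.79 and 2.88 in control libraries (5.08 ± 0.67). Histone genes share nearly identical sequences, so single members of the list are uncertain. As a share of counts without rRNA, histone genes took 0.172 ± 0.0375% in sterile and 0.957 ± 0.0488% in control libraries (SD, n = 3 each).

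Small RNA and chromatin factors of germline inheritance followed the germline lists. Of 30 mutator, Dicer and nuclear RNAi factor genes, 26 were lower and 1 was higher (median -1.43), and mut-16, the scaffold of mutator foci, had 1574, 2125 and 1901 in sterile libraries, against 6266, 5667 and 5393 in control libraries (-1.64 ± 0.12). The 26G Argonaute gene ergo-1, of oocytes and embryos, had 1219, 2041 and 1978 in sterile libraries, against 8846, 7909.9 and 6999 in control libraries (-2.21 ± 0.18). Of 22 genes of histone methylation, 21 were lower and none was higher (median -1.77). wdr-5.1, a subunit of the H3K4 methyltransferase complex, had 300.2, 436 and 329 in sterile libraries, against 1804, 1691 and 1607 in control libraries (-2.27 ± 0.14), and the H3K4 demethylase gene spr-5 had a log2 fold change of -1.64 ± 0.12. The Polycomb-type gene mes-6 had 218, 346 and 318 in sterile libraries, against 1296, 1227 and 1329 in control libraries (-2.15 ± 0.17). Sterile libraries lay below fertile and control libraries in all 5 genes named.

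Most early embryonic genes were lower in sterile animals, which were selected for carrying no eggs. Of 62 early zygotic genes in the table, 45 were tested, 35 were lower and 6 higher, with a median of -3.09. The endoderm GATA factor gene end-1 had 0, 3.17 and 0 in sterile, 22.7, 21.9 and 18.3 in fertile and 17.8, 14.4 and 28.8 in control libraries (log2 fold change over control -3.67 ± 0.61). The 6 embryo markers summed to 11.95 to 42.4 in sterile, 152 to 225 in fertile and 227 to 295 in control libraries. The part of embryos in the other genes that fell was not tested. The 10 lowest genes by the naming rule were F15A4.10, sdz-21, fbxb-37, fbxb-103, R02C2.1, Y25C1A.6, R04A9.7, ced-8, F56D5.5 and R11.4. F15A4.10 had 0, 0 and 6.18 in sterile, 74.7, 69.3 and 32.1 in fertile and 140.5, 123 and 112.4 in control libraries (log2 fold change over control -6.03 ± 0.67). sdz-21, from a group of genes named for SKN-1-dependent zygotic transcripts, had 0, 9.52 and 2.65 in sterile, 86.4, 79.8 and 88.2 in fertile and 124, 133 and 133 in control libraries (-5.28 ± 0.63), and ced-8, a cell death gene, had 3.98, 4.76 and 8.83 in sterile, 152, 169 and 136 in fertile and 156, 156 and 143 in control libraries (-4.54 ± 0.28). Fertile and control libraries lay close together in ced-8, and the 3 sterile libraries were below 10.

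F-box, MATH and BATH domain genes, many of which encode substrate adaptors of ubiquitin ligases, numbered 340 in the table, and of 247 tested 151 were lower and 57 higher (median -1.64). The list was uneven between its families. Of 84 fbxb genes tested, 82 were lower and none was higher, with a median of -3.31, and 58 of them were among the 357 genes at least 8-fold lower, a count made after the values were seen, against 2.66% of all genes tested. fbxb-103 had 2.66, 4.76 and 3.53 in sterile, 73.9, 85.1 and 118 in fertile and 145, 109.9 and 135 in control libraries (log2 fold change over control -4.83 ± 0.29). Of 87 fbxa genes, in contrast, 41 were higher and 22 lower, with a median of 0.84 that was -0.097 after muscle scaling. Of 20 sdz genes 16 were lower and 14 at least 8-fold lower, of 18 skr genes (Skp1-related) 14 were lower, and of 10 tbx genes (T-box factors) 8 were lower. Chromosome II held 39.5% of the genes at least 8-fold lower, against 17.7% of the genes tested. The 357 genes at least 8-fold lower had a median level of 8.13 in sterile, 66.8 in fertile and 87.9 in control animals.

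**Figure D3:**
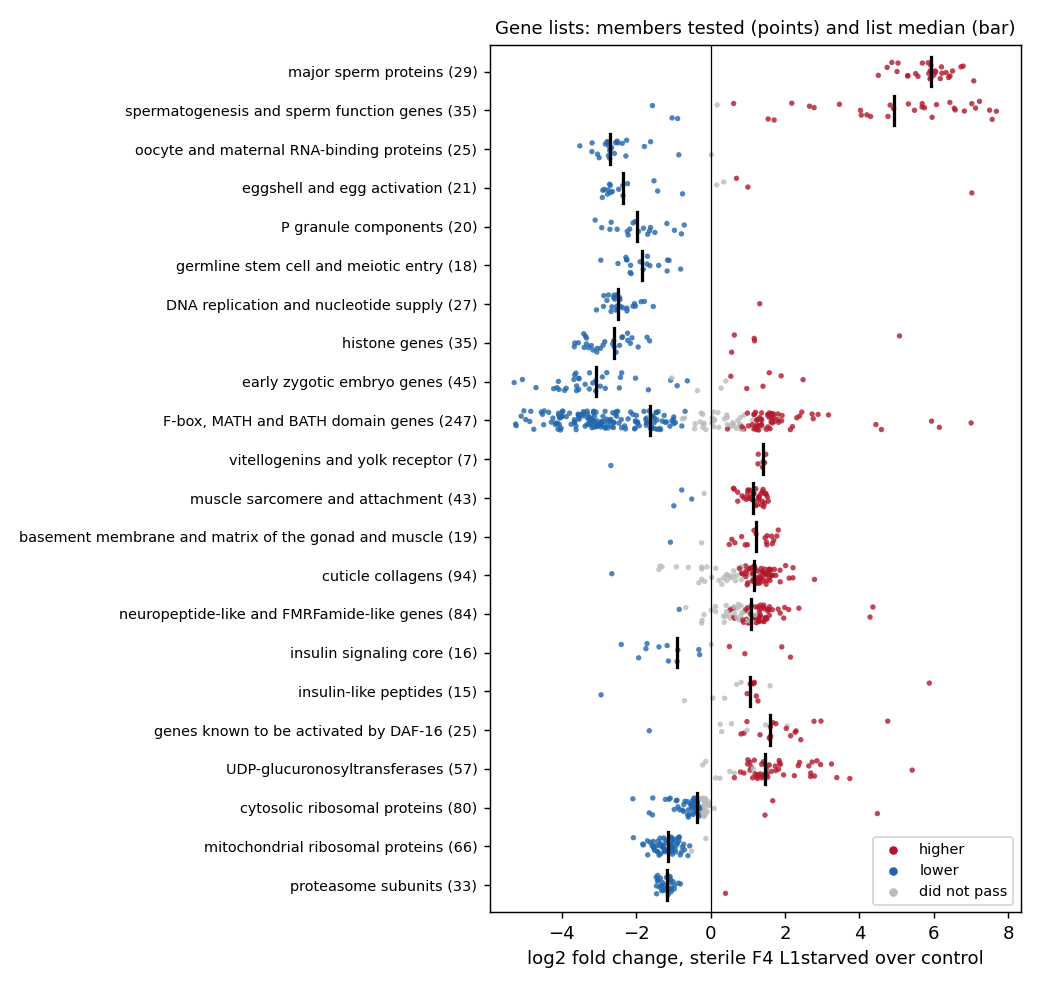
Log2 fold change of sterile over control adults (horizontal axis) for the members tested of 22 gene lists, with the number tested in parentheses; each point is a gene, red where it was higher, blue where it was lower and gray where it did not pass, and the black bar is the median of the list. The sperm lists have medians of 5.92 and 4.92, the germline, oocyte, division and embryo lists below 0, and muscle, matrix, cuticle and UGT genes above 0 with medians of 1.15 to 1.46.

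Yolk genes were higher in sterile animals although the yolk receptor was lower. All 6 vitellogenin genes, expressed in the intestine, were higher by 1.27 to 1.48 on the log2 scale. vit-2 had 1338800.0, 994653 and 1175770.0 in sterile, 599186, 498061 and 517076 in fertile and 475153, 453110.0 and 399676 in control libraries (log2 fold change over control 1.395 ± 0.19, adjusted p = 2.10e-05). vit-6, the most abundant of them, had 1710350.0, 1292440.0 and 1475030.0 in sterile, 751324, 628939 and 648999 in fertile and 594918, 572981 and 510025 in control libraries (1.41 ± 0.19, adjusted p = 2.30e-05). The sterile libraries were separate from and above all others, and fertile and control libraries were close together. vit-3, vit-4 and vit-5 are nearly identical in sequence, so the split of reads among them is uncertain, and vit-1 was higher by 1.28 ± 0.17. Vitellogenins and rme-2 together made up 27.8 ± 3.30% of counts without rRNA in sterile and 10.98 ± 0.582% in control libraries (SD, n = 3 each; 2.53-fold), and 13.4 to 16.12% in fertile libraries. Relative to muscle messages, which also rose, the median of this list was 0.39 instead of 1.395. Quantile normalization gives a gene of the same rank in every library the same value. It thereby fixed vit-1, vit-2, vit-5, vit-6 and the list median at 0, so it could not test their change. By this scaling vit-3 passed (0.24) and vit-4 did not (0.29, adjusted p = 0.151). Of 11 regulators of yolk gene expression (median 1.07, muscle-scaled 0.074, with 1 higher and 3 lower after muscle scaling) 7 were higher, including the homeobox gene ceh-60 (1.07), the TGF-β ligand gene dbl-1 (1.38) and mab-3 (1.999), and 2 were lower, lin-28 (-1.197) and the TORC2 subunit gene rict-1 (-1.16).

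**Figure D4:**
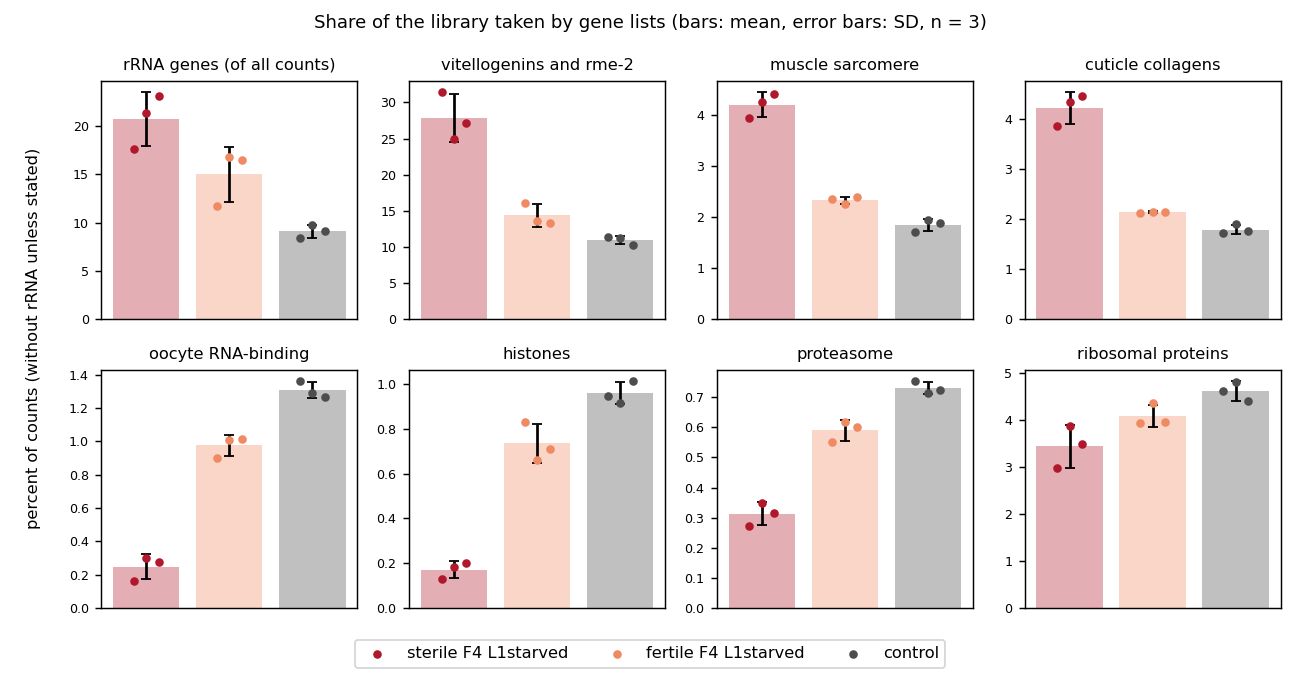
Percent of counts taken by gene lists in each adult library (vertical axes start at 0; sterile left, fertile in the middle, control right; bars are means, error bars SD, n = 3, points single libraries), without rRNA unless the panel is rRNA itself. Yolk genes reach 27.8 ± 3.30% in sterile libraries against 10.98 ± 0.582% in control libraries, and oocyte RNA-binding protein and histone genes take a smaller share in sterile libraries.

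Most muscle and basement membrane genes were higher in sterile animals. Of 43 muscle sarcomere and attachment genes 39 were higher and 3 lower, with a median of 1.15. The body wall myosin gene unc-54 had 157794, 189030.0 and 205583 in sterile, 70576, 81416 and 87503 in fertile and 63074, 68124 and 63508 in control libraries (log2 fold change over control 1.497 ± 0.14), and the list's share of counts without rRNA was 4.19 ± 0.243% in sterile and 1.84 ± 0.119% in control libraries (SD, n = 3 each). 2 of the members that were lower, named after their values were seen, are also used outside muscle, the actin gene act-2 (-0.99), which shares sequence with other actins, and the myosin chaperone gene unc-45 (-0.77; -0.096 by quantile normalization, adjusted p = 0.292). Of 19 basement membrane and matrix genes 17 were higher (median 1.22, muscle-scaled 0.22), and the collagen IV gene let-2 had 50746, 56448 and 58585 in sterile libraries, against 15384, 16739.7 and 14863 in control libraries (1.82 ± 0.10). mig-6, a papilin gene expressed by the distal tip cell and muscle, had 17235, 17340.1 and 17981 in sterile libraries, against 5419, 5857 and 5604 in control libraries (1.64 ± 0.09). The list median in fertile over control animals was 0.45. Of 15 genes of the hypodermis and seam 6 were higher and 5 lower (median 0.54, muscle-scaled -0.46, and -0.24 by quantile normalization) over a range of -3.097 to 2.65. These are 40% and 33.3%, near the 41.3% higher and 41.8% lower among all genes tested.

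Neuropeptide, cuticle collagen and nuclear hormone receptor genes gave medians close to that of muscle. Of 84 neuropeptide genes tested, of 101 in the table, 54 were higher and 1 lower (median 1.099, muscle-scaled 0.11), and flp-14 had 459.6, 417 and 442 in sterile libraries, against 136, 142.4 and 166 in control libraries (1.57 ± 0.16). The proprotein convertase gene egl-3, which processes neuropeptides, had 2364, 2425 and 2480.0 in sterile libraries, against 833, 879.6 and 883 in control libraries (1.49 ± 0.10). Of 28 neuronal vesicle release genes 19 were higher and 6 lower (median 1.04, muscle-scaled 0.044); the neuronal markers unc-119 (-0.78) and snb-1 (-0.58; 0.10 by quantile normalization) were among those lower. Of 94 cuticle collagen genes tested, of 134 in the table, 64 were higher and 1 lower (median 1.17, muscle-scaled 0.16), and the adult collagen gene col-19 had 17414, 28081 and 26799.7 in sterile libraries, against 12271, 15331 and 12334 in control libraries (0.83 ± 0.18; -0.18 after muscle scaling, not passed). The cuticlins, which form cuticle ridges and other parts of it, had 9 of 21 higher and 2 lower (median 0.53, muscle-scaled -0.41, and -0.50 by quantile normalization). Of 164 nuclear hormone receptor genes 110 were higher and 15 lower (median 0.99, muscle-scaled 0.01), led among those named by nhr-11 with 307, 333 and 391 in sterile, 111.6, 109 and 141 in fertile and 37.5, 39.4 and 48.3 in control libraries (3.01 ± 0.19). The transthyretin-related ttr genes had 38 of 49 higher and 2 lower (median 1.31, muscle-scaled 0.32). On the X chromosome as a whole, 53.3% of 1842 genes tested were higher and 20.6% lower (median 0.73), while on chromosome I 32.7% of 2278 were higher and 53.9% lower (median -0.67).

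The somatic gonad gave a mixed picture. Of 22 genes of the gonadal sheath, spermatheca and distal tip cell, 14 were higher and 6 lower (median 0.64, muscle-scaled -0.36). The sheath innexin gene inx-8 had 1458, 1463 and 1453 in sterile libraries, against 1087, 991 and 974 in control libraries (0.52 ± 0.10; -0.49 after muscle scaling, where it passed as lower), and the sheath homeobox gene ceh-18 had 307, 254 and 280.0 in sterile libraries, against 92.7, 114 and 107 in control libraries (1.42 ± 0.20), both without overlap. The members that were lower were inx-14, inx-22 and inx-21, innexin genes of the germline side of these junctions, the Eph receptor gene vab-1, the EGF ligand gene lin-3 and the Notch ligand gene lag-2, with log2 fold changes of -2.38, -2.24, -1.27, -1.90, -1.89 and -1.39. The 4 gonadal sheath markers summed to 2330 to 2390 in sterile, 1584 to 1702 in fertile and 1464 to 1578 in control libraries.

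Insulin signaling genes, which set the activity of DAF-16, moved in both directions. Of 16 core genes 4 were higher and 11 lower, with a median of -0.89 in sterile over control, -0.55 in sterile over fertile and -0.22 in fertile over control animals. The receptor gene daf-2 had 2812, 2589 and 2668 in sterile, 3939.7, 4726 and 4616 in fertile and 5329, 4826 and 4916 in control libraries (log2 fold change over control -0.90 ± 0.10, adjusted p = 6.57e-06), and sterile libraries were below all others. The PI3 kinase subunit genes age-1 and aap-1 had log2 fold changes of -1.74 ± 0.17 and -1.71 ± 0.13, and pdk-1 of -1.39 ± 0.17.

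The Akt kinase genes moved in opposite directions. akt-1 had 1621, 1733 and 1534 in sterile, 2426, 2604 and 2519.8 in fertile and 3947, 3508 and 3529 in control libraries (log2 fold change over control -1.17 ± 0.10, adjusted p = 7.71e-07). akt-2 had 503, 373 and 416 in sterile, 193, 129 and 162 in fertile and 97.4, 75.8 and 118.9 in control libraries (2.15 ± 0.21, adjusted p = 2.16e-06). In both genes the sterile libraries did not overlap with fertile or control libraries, below them in akt-1 and above them in akt-2. The insulin receptor substrate gene ist-1 had 503, 414 and 403 in sterile, 179, 182 and 175 in fertile and 97.4, 129.6 and 123 in control libraries (1.91 ± 0.16), and the kinase gene sgk-1 had 317, 443 and 378 in sterile libraries, against 177, 211 and 209 in control libraries (0.92 ± 0.18; -0.084 after muscle scaling). akt-2 and ist-1 were higher than muscle genes were (muscle-scaled 1.14 and 0.91). daf-16 itself had 2047, 2249 and 2565 in sterile, 2470.1, 2295 and 2263 in fertile and 3076, 2764 and 2684 in control libraries (-0.32 ± 0.11, adjusted p = 0.0193). Sterile and fertile libraries of daf-16 overlapped (sterile over fertile -0.04, adjusted p = 0.751). This small difference no longer passed by TMM scaling, by edgeR, by DESeq2 or without control replicate 1. By quantile normalization daf-16 passed as higher (0.32, adjusted p = 0.00952), and after muscle scaling it passed as lower (-1.32, adjusted p = 1.17e-07).

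Of 28 insulin-like peptide genes listed 15 were tested, 8 were higher (ins-6, ins-13, ins-18, ins-24, ins-26, ins-27, ins-30 and ins-37) and ins-34 was lower, with a median of 1.06 that became 0.10 after muscle scaling and -0.20 by quantile normalization. By quantile normalization ins-27 and ins-30 no longer passed. ins-37 was set apart from the others, with 243, 183 and 192 in sterile, 19.3, 8.77 and 14.9 in fertile and 0, 5.30 and 5.77 in control libraries (log2 fold change over control 5.88 ± 0.64). ins-34 had 7.97, 6.35 and 6.18 in sterile, 60.4, 31.6 and 28.6 in fertile and 62.7, 63.6 and 51.2 in control libraries (-2.94 ± 0.35), and its 3 sterile libraries were below 10. Genes known to be activated by DAF-16 were mostly higher, 18 of 25 with 1 lower (median 1.61, against 0.14 for all genes), and after muscle scaling 11 were higher and 2 lower (median 0.61). Their median was 1.32 in sterile over fertile and 0.44 in fertile over control animals. The superoxide dismutase gene sod-3 had 239, 119.04 and 127 in sterile, 63.8, 62.3 and 24.1 in fertile and 29.97, 37.1 and 44.7 in control libraries (2.03 ± 0.39, adjusted p = 4.04e-04), with no overlap between sterile libraries and the others. The metallothionein gene mtl-1 had 417, 61.9 and 53.9 in sterile, 47.001, 27.2 and 4.58 in fertile and 8.43, 15.9 and 18.02 in control libraries (2.96 ± 0.84, adjusted p = 0.00592), a value set largely by sterile replicate 1, without which it was 2.02 (adjusted p = 0.0183), and by quantile normalization the adjusted p was 0.076. The iron storage gene ftn-1, chosen after its values were seen, had 494, 165 and 94.5 in sterile, 32.7, 7.90 and 25.21 in fertile and 2.81, 6.06 and 13.7 in control libraries (4.76 ± 0.68). The desaturase gene fat-5 had 1512, 1219 and 1338 in sterile libraries, against 299.7, 274 and 252 in control libraries (2.295 ± 0.14), and sip-1, a small heat shock protein gene and the only member lower, had 4945, 6036 and 6621 in sterile libraries, against 19259, 18380.0 and 17136 in control libraries (-1.65 ± 0.12). Of 7 genes known to be repressed downstream of DAF-16, dod-17, dod-19 and dod-23 were higher and dod-18 lower (median 0.80, muscle-scaled -0.20). dod-17 did not pass by quantile normalization.

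**Figure D5:**
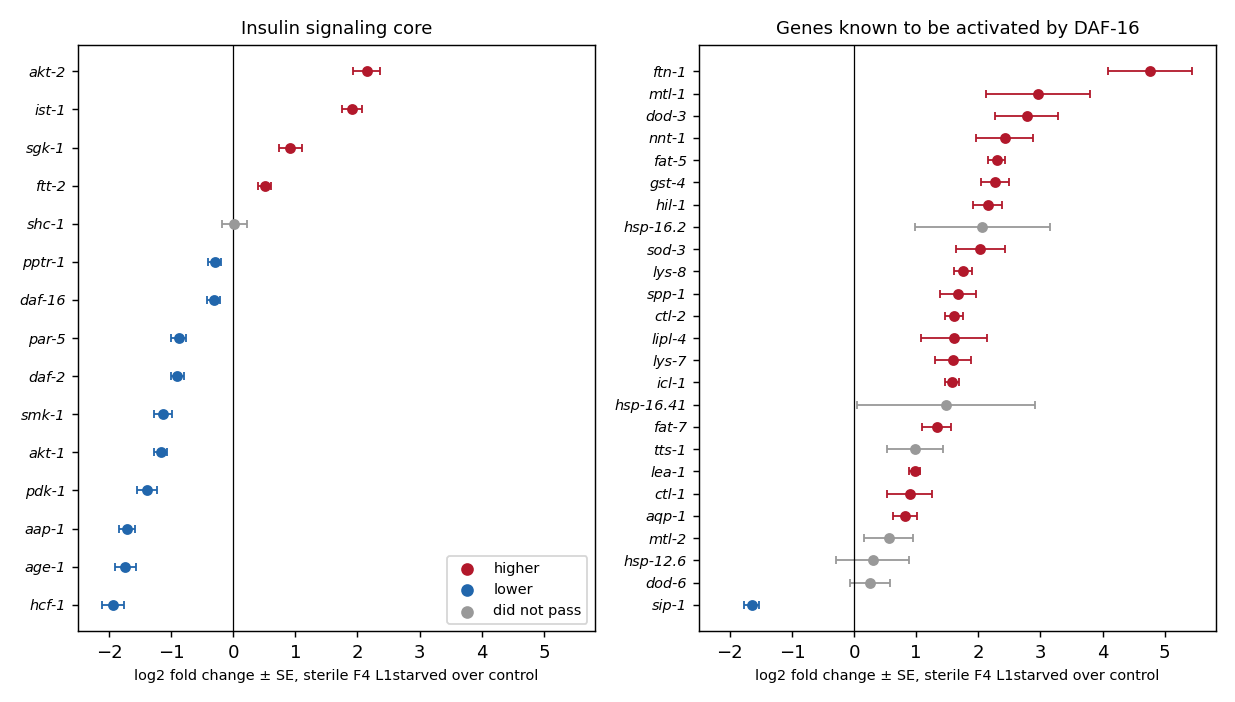
Log2 fold change of sterile over control adults with its SE (horizontal axis) for core genes of insulin signaling (left) and for the genes known to be activated by DAF-16 (right), red where higher, blue where lower and gray where the test was not passed. akt-2, ist-1, sgk-1 and ftt-2 (-0.50 after muscle scaling) are the core genes above 0 that passed, and sip-1 is the gene below 0 among the DAF-16 activated genes.

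Other nutrient pathways differed from each other. All 10 genes of the TOR complexes and Rag GTPases were lower (median -1.28), and daf-15, which encodes the Raptor subunit, had 2008, 2716 and 2609 in sterile libraries, against 6917, 6278 and 6291 in control libraries (-1.42 ± 0.13). Of 13 AMPK genes (median 0.11, -0.14 by equal totals and -0.90 after muscle scaling) 6 were higher, for example the gamma subunit genes aakg-3 (1.70) and aakg-4 (1.70), and 6 were lower, for example the upstream kinase gene par-4 (-1.76). That is 46.2% in each direction, near the 41.3% higher and 41.8% lower among all genes tested. Of 14 genes of dauer TGF-β and steroid hormone signaling 8 were higher and 3 lower, with a median of 0.52 that was -0.46 after muscle scaling. The TGF-β ligand gene daf-7, expressed in sensory neurons, had 74.4, 90.5 and 117 in sterile, 41.1, 40.4 and 30.9 in fertile and 20.6, 19.7 and 33.9 in control libraries (1.90 ± 0.30), while its receptor genes daf-1 and daf-4 were -0.86 and -0.68. Of 9 genes of serotonin synthesis, uptake and reception tested (median 0.67, muscle-scaled -0.32, and -0.27 by quantile normalization), 6 were higher, among them bas-1 (1.89) and ser-4 (1.70; 0.61 by quantile normalization, adjusted p = 0.0612), and ser-7 was lower (-0.77).

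In most lists of lipid and carbohydrate metabolism more genes were higher than lower. Of 25 genes of fatty acid synthesis and desaturation 17 were higher and 4 lower (median 0.94, muscle-scaled -0.07), and of 41 genes of fatty acid oxidation 26 were higher and 4 lower (median 0.79; muscle-scaled -0.18, with 10 higher and 18 lower). The fatty acid synthase gene fasn-1 had 30837, 25654 and 29791 in sterile, 17386, 17988 and 16734 in fertile and 10744, 10546 and 9859 in control libraries (1.47 ± 0.11), and the peroxisomal thiolase gene daf-22 had 1852, 1790.3 and 1769 in sterile libraries, against 493, 557 and 546 in control libraries (1.76 ± 0.11). The acyltransferase gene dgat-2, of triglyceride synthesis, had 841, 1227 and 913 in sterile, 276, 264 and 188 in fertile and 169, 164 and 169 in control libraries (2.55 ± 0.18), whereas the triglyceride lipase gene atgl-1 had 890.0, 821 and 1169 in sterile, 1889, 1993 and 2084 in fertile and 2671, 2443 and 2525 in control libraries (-1.42 ± 0.13). Both genes were separate between sterile and control libraries, in opposite directions. Of 18 lipase and lipid droplet genes 7 were higher and 7 lower (median 0.27, muscle-scaled -0.73). That is 38.9% in each direction, near the 41.3% higher and 41.8% lower among all genes tested. Of 16 lipid-binding protein genes 12 were higher and 2 lower (median 1.199, muscle-scaled 0.19), for example far-2 with 79899.9, 81194 and 78389 in sterile libraries, against 29323, 29586 and 27602 in control libraries (1.47 ± 0.11). Of 15 genes of the glyoxylate cycle, gluconeogenesis and trehalose synthesis 13 were higher and none lower (median 1.19, muscle-scaled 0.18). Among them pck-1, for the key enzyme of gluconeogenesis, had 8864, 6755 and 6530.4 in sterile, 2996, 2539 and 2476 in fertile and 1998, 1789.6 and 1769.9 in control libraries (1.98 ± 0.13), and the trehalose synthase gene tps-2 had 4271, 4554 and 3727 in sterile libraries, against 737, 949 and 1082 in control libraries (2.19 ± 0.15). Of 19 glycolytic genes 11 were higher and 3 lower (median 0.52, muscle-scaled -0.49). After muscle scaling 5 were higher and 12 lower.

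Detoxification enzymes were mostly higher, and the medians of all 3 families examined stayed above 0 after muscle scaling. Of 57 UDP-glucuronosyltransferase genes tested 49 were higher and none lower (median 1.46, muscle-scaled 0.48), and of all 65 in the table, tested without the filter on low values, 51 were higher and none lower. ugt-66 had 527, 927 and 543 in sterile, 50.4, 43.9 and 61.9 in fertile and 12.2, 15.9 and 14.4 in control libraries (log2 fold change over control 5.42 ± 0.26), and ugt-41 had 2698, 4257 and 2227 in sterile, 549, 495 and 304 in fertile and 302, 342 and 285 in control libraries (3.25 ± 0.25). Of 52 cytochrome P450 genes 40 were higher and 6 lower (median 1.58, muscle-scaled 0.57). cyp-37A1 had 975, 851 and 678 in sterile libraries, against 116.1, 137 and 153 in control libraries (2.61 ± 0.17), whereas cyp-31A3, whose product acts in eggshell lipid synthesis, had 119.5, 184 and 217 in sterile libraries, against 965, 799 and 843 in control libraries (-2.36 ± 0.20). Of 32 glutathione transferase genes 17 were higher and 3 lower (median 1.11; muscle-scaled 0.18, with 8 higher and 9 lower), and gst-10 had 830.2, 935 and 741 in sterile, 169.5, 238 and 178 in fertile and 76.8, 91.7 and 75.7 in control libraries (3.34 ± 0.17). Sterile libraries were above all others in ugt-66, ugt-41 and gst-10.

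Defense and chaperone genes differed from each other. Of 85 C-type lectin genes 64 were higher and 7 lower (median 1.33, muscle-scaled 0.32); next to clec-123, whose control levels were near 0, clec-87 had 1190.2, 2503 and 2593 in sterile, 10641, 11022 and 11125 in fertile and 19504, 17594 and 18233 in control libraries (-3.22 ± 0.23). Of 54 lysozyme and antimicrobial effector genes 27 were higher and 2 lower (median 0.84, muscle-scaled -0.15), and lys-8 had 6097, 4477 and 4258 in sterile libraries, against 1394, 1414 and 1538 in control libraries (1.75 ± 0.14). None of 22 HSP70, HSP90 and organelle chaperone genes was higher and 19 were lower (median -1.105). Of 10 small heat shock protein genes 6 were higher and 1 lower (median 1.08), with none higher and 1 lower after muscle scaling (median 0.073). The abundant HSP70 gene hsp-1 had 25058, 38832 and 29505 in sterile libraries, against 71702, 64009.8 and 57019 in control libraries (-1.06 ± 0.17), and the heat shock factor gene hsf-1 had 649.5, 848 and 789.6 in sterile libraries, against 2812, 2606 and 2469 in control libraries (-1.79 ± 0.12). The heat-inducible genes hsp-16.2 and hsp-70 did not pass by limma and differed between replicates, and hsp-16.2 had 235.113, 52.4 and 13.2 in sterile, 289, 35.1 and 10.3 in fertile and 14.98, 10.6 and 12.3 in control libraries. Replicate 1 was the highest of both the sterile and the fertile libraries for hsp-16.2 and hsp-70, and without sterile replicate 3 both passed (log2 fold change over control 3.06 and 3.56). They also passed by edgeR (3.18 and 3.46, adjusted p = 0.0249 and 0.0166) and by DESeq2 (3.09 and 3.34, adjusted p = 0.0218 and 0.0173). These genes and hsp-1 were chosen after their values were seen.

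Most genes of mitochondrial ribosomes, the proteasome and tRNA charging were lower in sterile animals, and cytosolic ribosomal protein genes were lower by less. Of 80 cytosolic ribosomal protein genes 48 were lower and 3 higher, with a small median of -0.36 in sterile over control, -0.028 in sterile over fertile and -0.30 in fertile over control animals. Within this list the paralogs of L25 went opposite ways, rpl-25.1 with 1530.2, 1697 and 1773 in sterile, 711, 734 and 647 in fertile and 612, 599 and 600.3 in control libraries (1.46 ± 0.11) and rpl-25.2 with 1809, 2657 and 2386 in sterile, 3835, 3994 and 3261 in fertile and 7467, 6786 and 5819.9 in control libraries (-1.56 ± 0.15). rpl-11.2 was higher (1.67 ± 0.11), and rpl-42, chosen after its values were seen, had 35.9, 9.52 and 49.5 in sterile libraries, against 0, 0.758 and 0 in control libraries. Ribosomal protein genes took 3.44 ± 0.449% of counts without rRNA in sterile and 4.62 ± 0.211% in control libraries, and 4.76 ± 0.408 against 5.18 ± 0.264% once vitellogenin and msp counts were also left out of the total (SD, n = 3 each). With the latter total the sterile and control libraries overlapped (exact two-sided permutation test of 3 against 3 libraries, p = 0.2). Of 66 mitochondrial ribosomal protein genes 64 were lower and none higher (median -1.15), of 33 proteasome genes 32 were lower (median -1.16) and rpn-6.2 was higher (0.40), and of 32 aminoacyl-tRNA synthetase genes 31 were lower and none higher (median -1.02). The proteasome subunit gene pbs-4 had 724, 733 and 764 in sterile, 1204, 1188 and 1084 in fertile and 2119, 1893 and 1950.1 in control libraries (-1.42 ± 0.10). Of 37 respiratory chain and ATP synthase genes 14 were higher and 3 lower (median 0.22, -0.024 by equal totals and -0.78 after muscle scaling), and in sterile over fertile animals 28 were higher and 2 lower.

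The direct comparison of sterile with fertile F4 L1starved animals, which share their ancestry and their own L1 starvation, called 5206 genes higher (38.8% of those tested) and 5313 lower (39.6%). Fertile animals differed from control animals in fewer genes, 1323 higher (9.86%) and 1613 lower (12%). Genes of the cuticle's furrows and of molting had their own pattern, in which fertile animals stood apart. Of 12 body-shape and furrow collagen genes tested, of 19 in the table, 1 was higher and 3 lower in sterile over control animals (median 0.051, but -0.19 by equal totals and -0.92 after muscle scaling), 2 were higher and 7 lower in sterile over fertile animals (median -2.43), and 6 were higher and none lower in fertile over control animals (median 1.98). dpy-10 had 42.5, 34.9 and 66.2 in sterile, 446, 459 and 426 in fertile and 146, 120.5 and 96.6 in control libraries (log2 fold change -1.35 ± 0.24 in sterile over control and -3.24 in sterile over fertile animals, adjusted p = 2.27e-04 and 3.16e-06). dpy-17 had 242, 99.99 and 208 in sterile, 2107, 1499 and 1416 in fertile and 351, 252 and 331 in control libraries (-0.84 ± 0.29 and -3.26). The difference of dpy-17 from control rested on sterile replicate 2, without which it was -0.46 (adjusted p = 0.0554), and it did not pass without control replicate 1 or 3 either (-0.75 and -0.79), nor by edgeR (-0.54, adjusted p = 0.0851). Fertile libraries were the highest in both genes, and sterile libraries were below control libraries. The protease inhibitor gene mlt-11, needed for molting, had 304, 133 and 314 in sterile, 2574, 1871 and 1743 in fertile and 462, 331 and 334 in control libraries, a difference from control that did not pass (-0.66 ± 0.29, adjusted p = 0.0511) beside -3.11 against fertile animals (adjusted p = 5.61e-06). It passed without sterile replicate 1 or 3 (-0.85 and -0.88) and was -0.26 without sterile replicate 2. The 6 markers of the larval molt summed to 679 to 1728 in sterile, 6696 to 8840 in fertile and 1809 to 2093 in control libraries, and the part of animal stage in these values was not tested. Of 26 molting and apical matrix genes 12 were lower and 7 higher in sterile than in fertile animals, whereas against control 13 were higher and 6 lower (median 0.64, muscle-scaled -0.30).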

How the data were processed

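RNA of whole hermaphrodites was measured in 9 libraries of day 1 adults, 3 per group. For this, the study's methods name a NuGEN Ovation Universal library kit, Subread for mapping to WS220, featureCounts for the counts of each gene and DESeq2 for scaling (versions not given in the sources used here). The deposited values are a signal per gene, the count divided by the library's size factor. Also deposited were the authors' log2 fold changes and p-values of their own DESeq2 comparisons, neither of which was used. For most sample columns the unit check did not cover the recovery of reads below. A column name that reads both fertile and sterile was taken as sterile by its last word and number, as in the sample titles. Of 17723 rows, 3 with shifted cells were left out.

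The test was limma 3.58.1 (R 4.3.3), with variances moderated along a trend in mean level, on log2(value + 1), with the 3 adult groups in 1 fit and Benjamini-Hochberg adjustment over 13413 genes with a mean of at least 10, at a threshold of 0.05. Whole reads were recovered by dividing by each library's step (100% whole within 0.1) and tested with edgeR 4.0.16 and DESeq2 1.42.0 as alternatives. The scripts were tested on simulated data. Genes named were the insulin, vitellogenin and sex determination genes and cell type markers, the 10 highest and 10 lowest with a mean of at least 50 and no overlap, and up to 4 per list with the smallest p, and others are marked as chosen after their values were seen or are members that a count of few genes refers to. Members and lists were chosen with earlier results of these data known, so they are described by counts, medians and shares only. Of the identifiers, 17717 were found in the WBcel235 annotation, used for chromosome names and to mark rRNA genes. The sterile and fertile libraries of a number came from the same collection and are paired by design. Their deviations correlated at 0.384, 0.183 and 0.175, against -0.2448 to 0.0986 between sterile and fertile libraries of unlike number. Values over 0.1 also occurred between fertile and control libraries of unlike number (fertile 1 with control 2, 0.202). The main fit holds no replicate block, and counts with the block are given below. The values of 1 gene are withheld and not reported here.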

Additional observations from a re-analysis of the deposited data

How the results depend on the processing

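The depth of 12187063 to 22942483 assigned reads per library limits mainly genes near 0 in control libraries, whose fitted fold changes depend on the added 1, and p-values rest on 3 libraries per group. For each count of genes, 23 other settings were run: TMM, equal-total and quantile scaling, edgeR and DESeq2 on recovered reads, other pseudocounts, no filter or a stricter one, a fold or stricter p threshold, fits on the compared groups alone, the replicate block, and leaving out each library. Scaling to totals without rRNA and muscle scaling were added after seeing the data. All planned counts but 1 of 92 stayed within 1.5 times; the exception was the number lower in sterile than in fertile animals at 2-fold or more, 3358 against 5313. Under muscle scaling 2399 genes were higher than in control and 1995 higher than in fertile animals, against 5537 and 5206. Leaving out a library gave 5153 to 5618 genes higher and 5385 to 5626 lower than in control, and 4734 to 5190 higher and 5069 to 5279 lower than in fertile animals. Same-numbered sterile and control libraries were picked at the same time from separate lines, and their deviations correlated at -0.089, -0.030 and 0.028. With the replicate block 5567 genes were higher and 5620 lower than in control. Between sterile and fertile animals the replicate block gave 5234 and 5318. Of the genes named it changed in limma only the calls of mlt-11, hsp-16.2 and hsp-70, which newly passed.

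Of 8501 values of 406 genes named under the settings other than the 2 added scalings, 8377 kept direction and call, 60 no longer passed, 43 newly passed and 21 changed sign, and 362 genes kept both throughout. By quantile normalization 34 genes no longer passed or changed sign, among them vit-1, vit-2, vit-5 and vit-6, which this method sets equal between libraries. Of the 395 genes named that passed, 340 passed in the same direction after muscle scaling, 50 no longer passed and 5 passed in the opposite direction, and with totals without rRNA 394 passed in the same direction. By quantile normalization, the log2 fold change over control was 0.060 for fem-1, 0.10 for snb-1, 0.018 for tra-3, 0.17 for noah-1, 0.32 for daf-16, 0.37 for pptr-1, -0.54 for shc-1, -1.46 for wrt-2, -0.10 for elt-2, -0.0096 for lim-7, -0.24 for grd-10, -0.23 for mod-1 and -0.30 for cat-1, and by equal totals it was -0.23 for shc-1 and -0.065 for wrt-2. Leaving out a library gave -2.70 to 0.048 for dpy-7, -0.10 to 0.16 for shc-1 and -0.69 to 0.89 for wrt-2, none of which had passed. The cause of these changes was not tested.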

Other observations

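Intestinal genes, hedgehog-related genes, transporters and tubulins showed further differences between sterile and control adults. Of 24 intestinal genes 14 were higher and 3 lower, with a median log2 fold change of 0.59 that was -0.42 after muscle scaling. The gut esterase gene ges-1 had 1562, 1179 and 1017 in sterile, 487, 386 and 281 in fertile and 302, 351 and 352 in control libraries (log2 fold change over control 1.88 ± 0.21, adjusted p = 4.45e-06), whereas the gut GATA factor gene elt-2 did not pass (0.44 ± 0.21, adjusted p = 0.0662; 0.61 without sterile replicate 2, adjusted p = 0.0157) in limma but passed by edgeR (0.66, adjusted p = 0.0137) and DESeq2. Sterile libraries were above all others in ges-1 and overlapped with control libraries in elt-2. Hedgehog-related and patched-related genes had 32 of 47 higher and 4 lower (median log2 fold change 1.22; muscle-scaled 0.28, with 12 higher and 9 lower), and transporters of peptides, amino acids and neurotransmitters had 31 of 44 higher and 3 lower (median log2 fold change 1.37, muscle-scaled 0.39). Acyl-CoA synthetase genes had 16 of 20 higher and 3 lower (median log2 fold change 1.36, muscle-scaled 0.36), and acs-22 had 2237, 2276 and 2169 in sterile libraries, against 572, 558 and 675 in control libraries (1.89 ± 0.11). Of 13 tubulin genes tested 7 were higher and 5 lower (median log2 fold change 0.66, muscle-scaled -0.35, and -0.17 by quantile normalization); the general tubulin genes tba-1, tba-2, tbb-1, tbb-2 and tbg-1 were those lower (-1.47, -0.70, -0.84, -0.86 and -1.48), and the touch neuron tubulin genes mec-7 (1.13) and mec-12 (1.42) were among those higher.

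Paralogs of translation factors also went opposite ways. The elongation factor gene eef-1A.1, chosen after its values were seen, had 61934, 77869 and 75087 in sterile libraries, against 111406, 104416 and 96129.5 in control libraries (-0.54 ± 0.14), and eef-1A.2 had a log2 fold change of 1.07. These paralogs are similar in sequence, and reads that fit both could be split between them. The germline eIF4E gene ife-3 was lower (-1.74), and the related gene ife-4 was lower by less (-0.62). Heterochronic genes, which time larval development, had 5 of 11 higher and 5 lower (median log2 fold change -0.23, and 0.085 by quantile normalization), with lin-29 (1.74) and lin-14 (1.13) among those higher and lin-41 (-2.70) and lin-42 (-1.87) among those lower. Homeobox genes had 13 of 56 higher and 24 lower (median log2 fold change 0.013, but -0.23 by equal totals and -0.99 after muscle scaling), and the lowest were ceh-40 (-3.92), ceh-82 (-3.80) and ceh-49 (-3.65). Genes of apoptosis and corpse engulfment had 1 of 20 higher and 13 lower (median log2 fold change -0.93), and autophagy and lysosome genes had 22 of 51 higher and 21 lower (median log2 fold change 0.042, -0.21 by equal totals and -0.97 after muscle scaling). Of the heterochronic genes 45.5% were higher and 45.5% lower. Of the autophagy and lysosome genes 43.1% were higher and 41.2% lower. Both lists are near the 41.3% higher and 41.8% lower among all genes tested.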
